A study of Mus musculus with 4 samples.

Results

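Ubiquitin-conjugating enzymes (E2s) are the middle step of ubiquitin transfer, and the genes described here are all protein-coding genes whose symbol starts with Ube2 and a letter, in a study that deleted 1 of them, Ube2n, in mouse liver. The rule found 37 such genes among the 56953 gene rows of the count table, and 5 Ube2 pseudogenes and 1 antisense gene were left out. Transcripts were counted in 4 libraries of liver from mice aged 2 months on a normal diet. Both groups carried Ubc13 flox/flox alleles, that is, 2 copies of Ube2n (whose protein is Ubc13) flanked by recombination sites. The 2 control libraries were Alb negative, labelled WT for genotype, and the 2 deletion libraries were Alb positive, labelled as a hepatic Ubc13 deletion; Alb is read here as a recombinase driven by the albumin promoter, which is active in hepatocytes, so that other liver cells would keep the gene. The labels number the replicates 1 and 2 and do not say that they are separate animals. The p-values thus measure only the spread between these libraries, which may be technical for the controls. The deletion libraries were not repeats of a single RNA sample, since Y-linked transcripts were absent from deletion replicate 1 and present in deletion replicate 2.

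An E2 takes activated ubiquitin from an E1 enzyme onto a cysteine and, together with an E3 ligase, passes it to a target protein. Most E2s place ubiquitin itself, while a few are dedicated to related small proteins such as SUMO, NEDD8 and ISG15. Ubc13 builds chains linked through lysine 63 of ubiquitin, which serve as signalling platforms for NF-kB and DNA repair, and it does so as a dimer with Ube2v1 or Ube2v2, E2-like proteins without the catalytic cysteine.

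Total counts ranged from 16270424 to 17800138 per library, and a count of 3 corresponded to between 0.154 and 0.206 CPM (counts scaled to library totals adjusted by TMM factors). These 3' libraries read 1 stretch per transcript, so CPM follows transcript number without a correction for length. Hepatocyte markers were all detected (12 of 12), with 3 called lower and summed levels of 183257 and 179540 CPM in control liver against 95389 and 93293 CPM after deletion. Alb alone gave 119049 and 114960 against 45310 and 42886 CPM of these sums and was not called. The median log2 fold change of the 12 was -0.87, and Trf had the highest (0.43, not called). Calls of these and the following markers stand beside 4.41% of all tested genes called higher and 2.16% lower. Markers of macrophages (12 of 12 tested, 2 called higher) summed to 365 and 493 against 1249 and 990 CPM; without those 2, Cybb and Cd74, the other 10 summed to 311 and 428 against 635 and 487 CPM. Cholangiocyte markers (9 of 10 tested, 3 called higher) summed to 128 and 76.7 against 1372 and 1972 CPM, nearly all of it Spp1. Without Spp1 they summed to 77.5 and 24.2 against 45.1 and 56.6 CPM, overlapping, and the defining Krt19, Krt7, Epcam and Cftr had log2 fold changes of -2.62, -1.54, -0.77 and -0.85, not called. Genes left out of these sums were chosen after their values were seen. The tissue is labelled liver, while the library protocol speaks of RNA of primary hepatocytes. Sex-linked transcripts also differed: 4 Y-linked genes had 216 to 1027 counts each in the controls, 0 in deletion replicate 1 and 206 to 719 in deletion replicate 2, and Xist had 9 and 2 counts against 9590 and 3896. Their part in the results below was not tested beyond a fit with a covariate for male RNA (the share of Y-linked transcripts relative to the controls). In bulk liver, fewer cells of a type and less RNA per cell cannot be told apart.

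Ube2n was the only Ube2 gene called between the groups, and it fell about 7-fold. Control liver had 41.3 and 44.9 CPM of Ube2n (669 and 654 counts), and deletion liver had 5.88 and 5.97 CPM (107 and 116 counts). The deletion libraries thus sat far below both controls and close to each other. Their mean was 13.75% of the control mean (5.92 ± 0.063 against 43.1 ± 2.6 CPM, SD, n = 2 each), a log2 fold change of -2.86 with a standard error (SE) of 0.16 and a 95% interval from -3.25 to -2.47 (edgeR quasi-likelihood test with Benjamini-Hochberg adjustment, adjusted p = 0.00188). The call was lost, at the same size (-2.82, edgeR adjusted p = 0.0643), in a fit with a covariate for male RNA. That fit called 0.445% of all tested genes. It leaves 1 residual degree of freedom, as does a fit with a replicate block, where Ube2n kept its call (-2.86, edgeR adjusted p = 0.0121). The male RNA share was 0.969 and 1.03 in the controls against 0 and 0.613 after deletion. The cause of the lost call was not tested.

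On GRCm38, Ube2n (ENSMUSG00000074781) occupies bases 95515145 to 95545657 of the plus strand of chromosome 10. Its coding sequence covers bases 64 to 519 of a transcript of 3867 bases, and the last of its 4 exons (95542272 to 95545657) holds the 3' untranslated end where such libraries read. Since the flanked exons are not named, whether the counted stretch lies in the deleted part is not known. A processed pseudogene, Ube2n-ps1 (chromosome 5, 76232612 to 76233070, minus strand), is an exact copy of the coding sequence: all 459 of its bases matched the Ube2n transcript, with 0 substitutions. The stretch below, 1 read length across the junction of exons 3 and 4, is shown because it occurs whole in both, unbroken at Ube2n-ps1 and split by an intron at Ube2n; the capitals mark the bases on either side of the junction, and the sequence is from the GENCODE M21 transcripts, 5′ to 3′.
Ube2n bases 445 to 519, also in Ube2n-ps1: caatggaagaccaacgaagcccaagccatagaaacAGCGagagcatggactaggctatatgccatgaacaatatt

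Fewer reads were also counted at the copy in the deletion libraries. Ube2n-ps1 had 18 and 13 counts in control liver and 3 and 1 in deletion liver. That is a ratio of 9.48, control over deletion, with an exact counting interval from 3.35 to 37.0. Counting intervals of such ratios pool the libraries of a group and leave out the spread between them. The fit over libraries gave a log2 fold change of -3.15 (SE 0.69, edgeR adjusted p = 0.0519, not called). Reads of the copy and of the Ube2n coding sequence cannot be told apart by sequence. None of the 426 stretches of 75 bases in the last 500 bases of the Ube2n transcript occurred in another annotated gene, so reads from that end carry no such ambiguity.

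**Figure D1:**
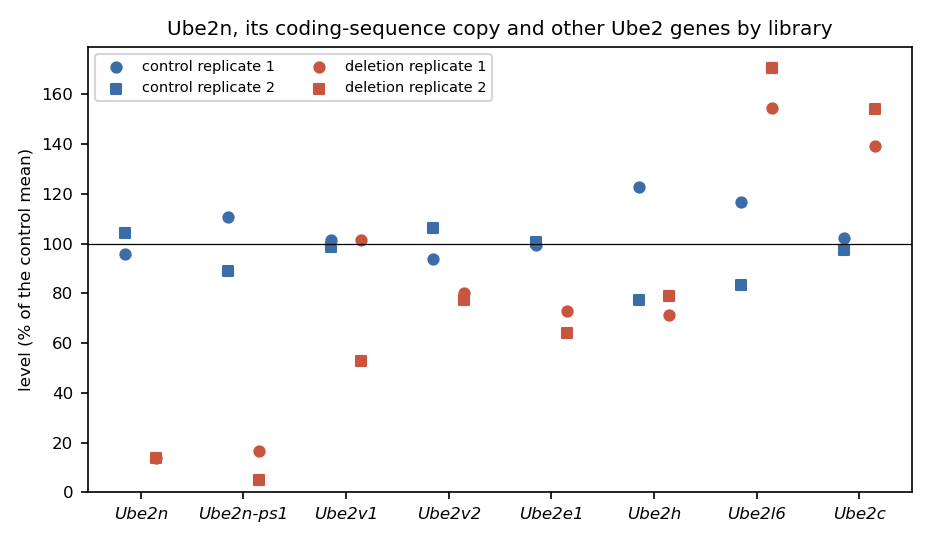
Level of Ube2n, its exact coding copy Ube2n-ps1, and 6 other Ube2 genes in each library, as a percentage of that gene's control mean; circles are replicate 1 and squares replicate 2, blue for control and red for deletion. Ube2n and Ube2n-ps1 lie far below the control line in both deletion libraries, Ube2l6 and Ube2c lie above both controls, and the 2 controls of Ube2h are themselves far apart.

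Neither partner of Ubc13 was called, and only Ube2v2 had enough counts to be tested. Ube2v2 had 6.11 and 6.94 CPM in control liver, against 5.22 and 5.04 CPM after deletion. Both deletion values were below both controls, by less than the test could resolve: the log2 fold change was -0.35 (SE 0.25, 95% interval -0.95 to 0.26, edgeR adjusted p = 0.453). Ube2v1 had 8 and 7 counts in control liver and 9 and 5 in deletion liver, under the filter on low counts, and its groups overlapped. The ratio of deletion to control was 0.763 with a counting interval from 0.341 to 1.70. Its low count is uncertain as a level, because 1673 of its 2721 exonic bases on chromosome 2 also belong, on the same strand, to the read-through gene Gm20431, which had 0 counts in all 4 libraries. Of the 75-base stretches in the last 500 bases of Ube2v1, 50.23% occur in Gm20431; how the authors' counting treated reads shared by 2 genes is not given in the sources used here, and its part in the low count was not tested.

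Of the 37 genes, 32 were tested and 5 were below the filter on low counts. Of the 31 tested besides Ube2n, 0 were called higher and 0 lower, where 6.57% of all 14600 tested genes were called, 4.41% higher and 2.16% lower. At an unadjusted p under 0.05 there were 2 higher (Ube2l6 and Ube2c) and 1 lower (Ube2e1), against 14% and 10.5% of all tested genes. Among the 31, limma-voom called 0 and DESeq2 called 1, Ube2l6, where they called 6.26% and 10.2% of all genes. The median log2 fold change of the 31 was 0.01, beside 0.00 for all tested genes (-0.0036), with 17 positive and 14 negative, and the range ran from -0.55 to 0.70. None reached 2-fold (0 of 31), as 13.8% of all tested genes did, and 27 of the 31 (87.1%) were within 0.5 on the log2 scale, as were 65.3% of all. Their levels were also measured more precisely than most, with a median SE of 0.16 beside 0.24 over all tested genes.

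The intervals bound how far the other Ube2 genes could have moved. For 25 of the 31 the 95% interval of the log2 fold change lay wholly inside a 2-fold change in either direction. The remaining 6 had intervals that reached 2-fold. Of these, Ube2l6 (0.21 to 1.19) and Ube2c (0.03 to 1.07) lay above 0, while Ube2d1 (-0.40 to 1.33), Ube2u (-0.40 to 1.49), Ube2t (-0.94 to 1.04) and Ube2cbp (-1.06 to 0.75) spanned it. In 11 of the 31 (35.5%) the libraries of the groups did not overlap, 4 higher and 7 lower after deletion, where 56% of all tested genes had no overlap (28.7% higher and 27.3% lower).

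**Figure D2:**
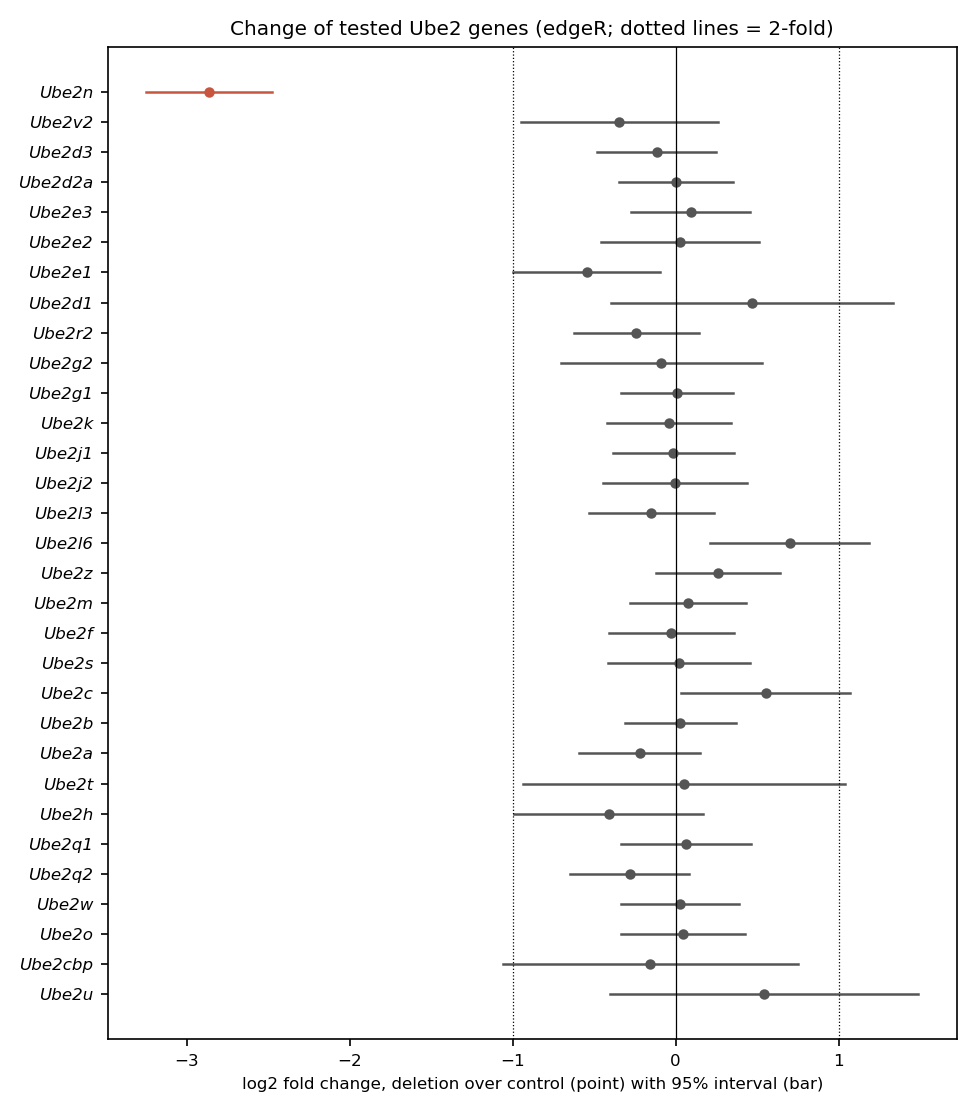
Log2 fold change, deletion over control, of 31 tested Ube2 genes (points) with 95% intervals (bars), ordered by role; red marks a call at an edgeR adjusted p under 0.05 and dotted lines mark a 2-fold change. Only the Ube2n interval, from -3.25 to -2.47, lies outside the dotted lines.

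**Figure D3:**
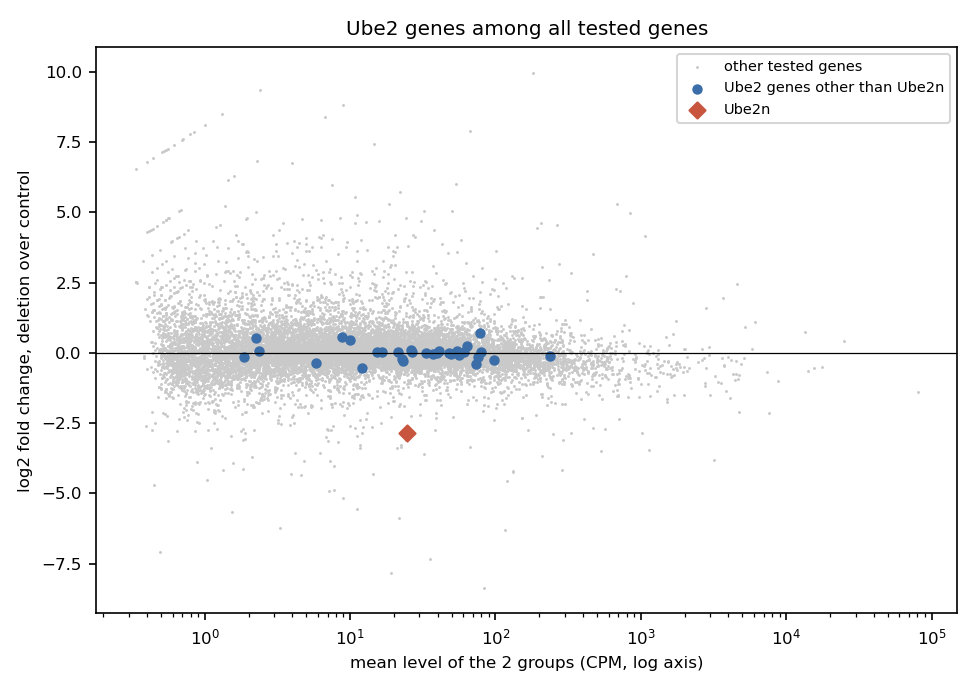
Log2 fold change against the mean CPM of both groups (log axis) for the 14600 tested genes (grey), the 31 other tested Ube2 genes (blue) and Ube2n (red diamond). The blue points stay between -0.55 and 0.70, inside the grey cloud, while Ube2n lies at -2.86.

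Ube2d3, the abundant broad-range E2 that works with many ligases, was the most highly expressed of the family, at 243 and 246 CPM in control liver, against 237 and 215 CPM after deletion. It gave between 15.9% and 17.6% of all Ube2 transcripts in a library. Ube2r2, Ube2h, Ube2l3 and Ube2b followed in the controls, with means of 106, 83.9, 79.8 and 78.1 CPM. The controls of Ube2d3 lay clear of those of Ube2r2, and from there to Ube2b each neighbour overlapped the next. In the controls, 23 genes of the family were at 20 CPM or more and 5 were under 1 CPM. Ube2n stood 14th of the 37 in the controls and 28th in the deletion libraries, apart from its neighbours in both orders (Ube2j1 and Ube2d2a, then Ube2e1 and Ube2v2), and Ube2l6 went from 7th to 2nd.

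**Figure D4:**
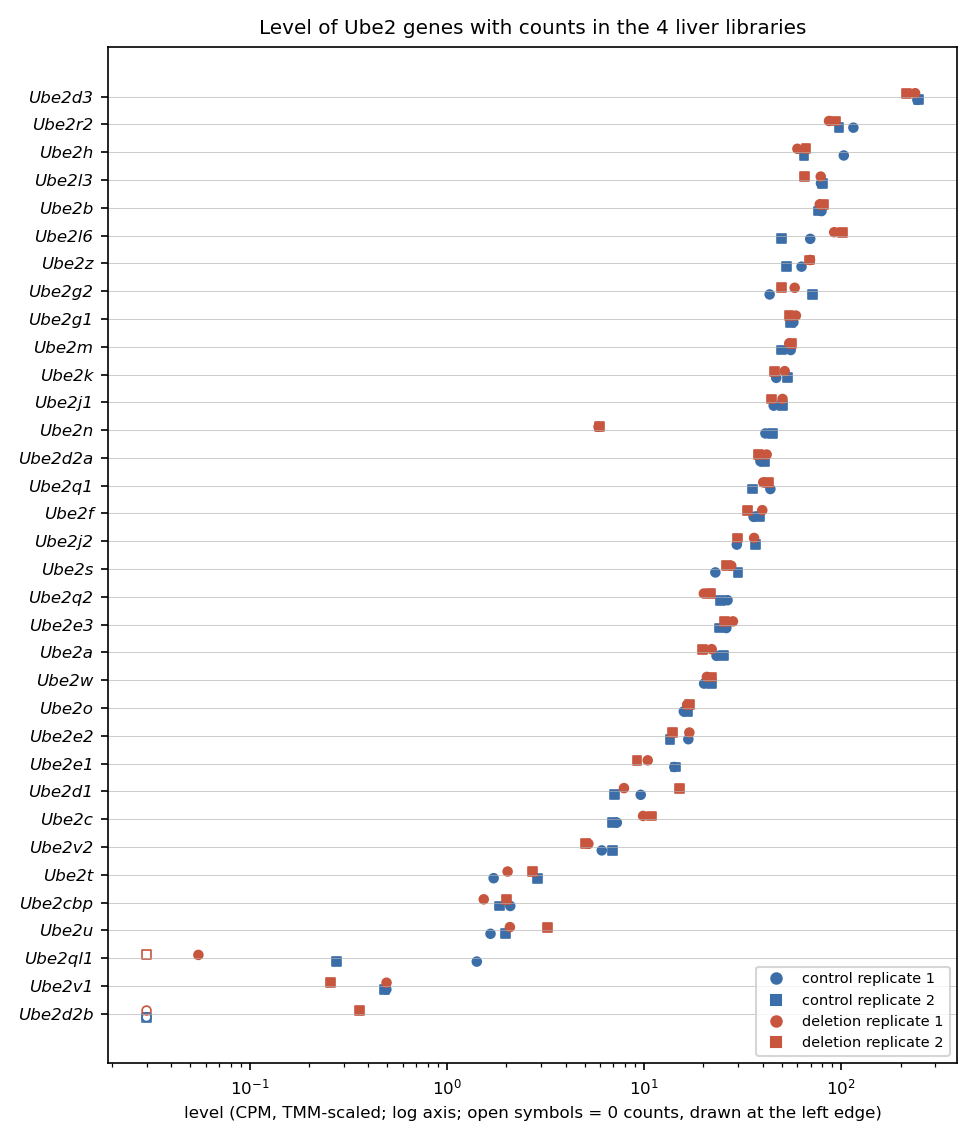
CPM on a log axis of 34 Ube2 genes with counts, ordered by control mean, with circles for replicate 1 and squares for replicate 2, blue for control and red for deletion; open symbols at the left edge are libraries with 0 counts. Ube2n is the gene whose red symbols (5.88 and 5.97 CPM) lie farthest below its blue ones (41.3 and 44.9 CPM) among genes above 2 CPM; a control and a deletion library of Ube2l6 (49.7 and 102 CPM) and of Ube2d1 (7.08 and 15.2 CPM) are also well apart.

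Summed over the family, Ube2 transcripts came to 1450 and 1401 CPM in control liver, against 1388 and 1354 CPM after deletion, or 1426 ± 34 and 1371 ± 24 CPM (SD, n = 2 each). Without Ube2n the sums were 1409 and 1357 against 1383 and 1348 CPM, and the groups overlapped. The share of Ube2n in this sum does not depend on scaling between libraries. It was 2.85% (exact Clopper-Pearson 95% interval 2.64 to 3.07) and 3.21% (2.97 to 3.46) in the controls. In the deletion libraries it was 0.424% (0.347 to 0.512) and 0.441% (0.364 to 0.529). Intervals of this kind cover counting error only. With 2 libraries against 2 the smallest exact two-sided permutation p is 0.333, so these sums were not tested.

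Among the broad-range UBE2D and UBE2E enzymes, which prime substrates for many ligases, 0 of 6 tested genes passed. Ube2d3, Ube2d2a, Ube2e3 and Ube2e2 had log2 fold changes of -0.11, 0.00 (0.0037), 0.09 and 0.03 (edgeR adjusted p from 0.702 to 0.992). Ube2e1 had 14.3 and 14.4 CPM in control liver, against 10.4 and 9.21 CPM after deletion, both lower than either control, at -0.55 (SE 0.19, edgeR adjusted p = 0.143). It shares 718 exonic bases with Nkiras1 on the opposite strand, which had 21.6 and 20.3 against 17.9 and 16.8 CPM, and without a stated strand setting the reads of the pair cannot be told apart. Ube2d1 differed between the deletion libraries, at 7.91 and 15.2 CPM against 9.62 and 7.08 CPM in the controls. The single-exon gene Ube2d2b had 0 counts in 3 libraries and 7 in deletion replicate 2.

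The builders of lysine 48 chains, the classical signal for the proteasome, also gave no call. Ube2k, Ube2g1, Ube2g2 and Ube2r2 had log2 fold changes between -0.24 and 0.01 (0 of 4 called, edgeR adjusted p from 0.407 to 0.977). Ube2g2 differed 1.65-fold between the controls themselves (43.4 and 71.4 CPM). Ube2j1 and Ube2j2, membrane-bound E2s of the degradation of misfolded proteins at the endoplasmic reticulum, had -0.01 and 0.00 (-0.0032), with 0 of 2 called. Ube2l3, the partner of HECT and RBR ligases including the linear ubiquitin complex, had 79.0 and 80.7 against 78.8 and 65.3 CPM, which gives -0.15 on the log2 scale (edgeR adjusted p = 0.624).

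E2s for ubiquitin-like proteins held the largest positive fold change of the family, without a call. Ube2l6, which transfers the interferon-induced modifier ISG15, had 69.6 and 49.7 CPM in control liver, against 92.2 and 102 CPM after deletion. Both deletion libraries were above both controls, and the controls differed 1.40-fold from each other. The log2 fold change was 0.70 (SE 0.20, 1.62-fold, edgeR adjusted p = 0.0984). The threshold was passed by Ube2l6 in DESeq2 (adjusted p = 0.0419), under scaling by library sizes alone (0.0373), with no filter on low counts (0.00552), with crossed replicate numbers (0.0498) and in the absence of control replicate 1 (0.00848); 9 other fits gave 0.0889 to 0.57. Markers of the interferon response moved beside it: 8 of 16 were called higher and 0 lower (4.41% and 2.16% over all tested genes), with summed levels of 339 and 403 CPM in control liver, against 785 and 793 CPM after deletion. The part of the interferon response, or of the change in cell type markers, in the level of Ube2l6 was not tested.

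Ube2z, which with the E1 Uba6 loads ubiquitin and the modifier FAT10, had 62.9 and 52.8 against 69.5 and 69.0 CPM (log2 fold change 0.26, edgeR adjusted p = 0.367). The NEDD8 enzymes Ube2m and Ube2f had 0.08 and -0.03, both with intervals inside a 2-fold change. The upstream genes of these systems were set beside their E2s after their values were seen, and no difference between systems was tested. For ISG15, the modifier gene Isg15 rose from 13.4 and 10.8 to 21.4 and 26.3 CPM (log2 fold change 0.97, SE 0.20, edgeR adjusted p = 0.0422). Its E1 gene Uba7 rose from 17.95 and 18.6 to 35.8 and 43.6 CPM (1.12, SE 0.17, edgeR adjusted p = 0.019). Neither call stood in every subset of libraries: Isg15 had an adjusted p of 0.0787 or 0.226 without deletion replicate 1 or 2, and Uba7 of 0.0968 without deletion replicate 2. For FAT10, the modifier gene Ubd rose from 0.308 and 0.824 to 119 and 148 CPM (7.89, SE 0.37, edgeR adjusted p = 0.00188), while its E1 gene Uba6 had 0.29 (edgeR adjusted p = 0.54). Of the NEDD8 genes Nedd8, Nae1 and Uba3 and the SUMO genes Sumo2, Sumo3, Sae1 and Uba2, 0 were called, with log2 fold changes from -0.02 to 0.46; Sae1 had the highest, with an edgeR adjusted p of 0.114.

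**Figure D5:**
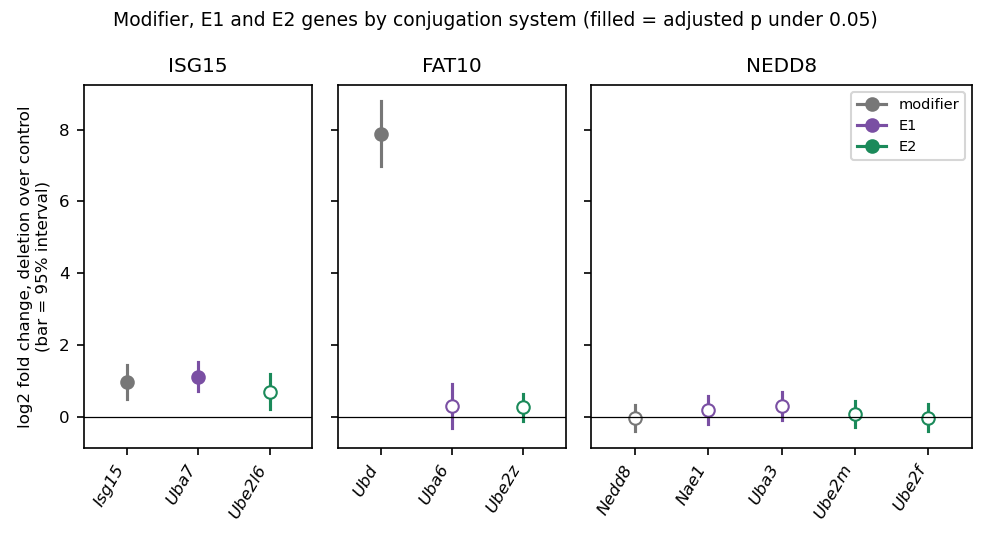
Log2 fold change, deletion over control, with 95% intervals, for the modifier (grey), E1 (purple) and E2 (green) genes of 3 conjugation systems; filled points have an edgeR adjusted p under 0.05. Isg15, Uba7 and Ubd are filled, and Ube2l6 (0.70) and the other E2s are open.

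In the promoters of the 30 family members with an entry (41 windows, RefSeq, GRCm38.p6, from 250 bases before to 50 after the start), 4 motifs were searched on both strands. A member was counted where any of its windows matched, while the shares over all promoters are per window, so they are not like for like. The core of the interferon element, GAAA and GAAA with 2 bases of any kind between, was in 1 member, Ube2dnl1, which had 0 counts, and in 3.44% of all promoters; these letters were not in the window of Ube2l6. The STAT element TTCNNNGAA was in 4 members and 8.3% of all promoters, and an NF-kB core, GGGA and TTTCC with 1 base of any kind between, in 0 members and 0.411% of all. The cell cycle element TTTGAA was in 4 members, Ube2c among them, and in 17.9% of all promoters. The stretches below are shown because Isg15 is the modifier that Ube2l6 transfers and Ube2c is described next to the cycling markers; capitals mark the matches, of which the 3 of Isg15 overlap each other and that of Ube2c is on the reverse strand.
Isg15, chr4:156200862-156200921, minus strand: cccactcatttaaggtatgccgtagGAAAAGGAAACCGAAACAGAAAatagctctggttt
Ube2c, chr2:164769875-164769934, plus strand: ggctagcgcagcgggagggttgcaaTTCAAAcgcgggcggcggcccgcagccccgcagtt

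Ube2c, which with Ube2s builds chains for the anaphase-promoting complex in mitosis, had 7.28 and 6.94 CPM in control liver, against 9.89 and 10.96 CPM after deletion. Both deletion libraries were above both controls, and the log2 fold change was 0.55 (SE 0.21, edgeR adjusted p = 0.182). Ube2c shares 592 exonic bases with Tnnc2 on the opposite strand. Without a stated strand setting, reads of the shared bases cannot be told apart. Of 16 cycling cell markers tested beside Ube2c, 1 (Top2a) was called higher and 0 lower, where 4.41% and 2.16% of all tested genes were. The markers had a median log2 fold change of 0.71 and summed to 155 and 164 against 242 and 261 CPM. Their part in the Ube2c level was not tested. Ube2s had 23.0 and 29.95 against 27.7 and 26.1 CPM, with overlapping groups and a log2 fold change of 0.02. The same limit holds for the 183 exonic bases that Ube2s shares with Rpl28, which had 210 and 252 against 161 and 156 CPM.

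The DNA repair and chromatin E2s showed 0 calls in 3. Ube2b and its X-linked relative Ube2a, the partners of Rad18 in DNA damage tolerance, had log2 fold changes of 0.03 and -0.22 (edgeR adjusted p = 0.93 and 0.437). Ube2t, the E2 of the Fanconi anaemia pathway, had 28, 42, 37 and 53 counts and, as given above, an interval that reached 2-fold.

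Of the remaining 10 genes, 7 were tested and 0 called. Ube2h had 103 and 64.8 CPM in control liver, against 59.96 and 66.3 CPM after deletion, so that only control replicate 1 stood apart, and the controls differed 1.59-fold. Its log2 fold change was -0.41 (SE 0.24, edgeR adjusted p = 0.353), but -0.71 without control replicate 2 (adjusted p = 0.0282) and -0.04 without control replicate 1 (0.941). Ube2u had 1.67 and 1.99 against 2.09 and 3.24 CPM (log2 fold change 0.55, SE 0.39, edgeR adjusted p = 0.45). Ube2w, which modifies protein N termini, the large hybrid E2 Ube2o, Ube2q1 and Ube2q2 had 0.02, 0.05, 0.07 and -0.28. Ube2cbp, whose protein binds an E2 and is not itself one, had -0.16. Ube2ql1 was below the filter, with 23 and 4 counts in control liver and 1 and 0 after deletion. Its control to deletion ratio was 33.0 (counting interval 5.44 to 1352, without the spread between libraries). Most of its counts came from control replicate 1, and the groups did not overlap. Ube2dnl1 and Ube2dnl2 had 0 counts in all 4 libraries, which allows up to 0.206 CPM in any of them.

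Genes around the E2 step were read from 5 further lists, whose counts stand beside 4.41% of all tested genes called higher and 2.16% lower. Of 8 tested E2-like proteins without the Ube2 symbol, 0 were called; Birc6, Ufc1 and Cdc34 had log2 fold changes of 0.21, -0.19 and 0.20, and at an unadjusted p under 0.05 only Atg3 was lower (-0.47), as named after its values were seen. Of 9 tested E1 genes, Uba7 rose and 8 did not pass, among them the main ubiquitin E1 gene Uba1 (0.01) and the autophagy E1 gene Atg7 (0.12). Of 12 ubiquitin and ubiquitin-like genes, Ubd and Isg15 rose and 10 did not pass; the polyubiquitin gene Ubb had 0.04, and the fusion gene Rps27a 0.05. The medians of these 3 lists were 0.02, 0.19 and 0.09, beside -0.0036 for all tested genes.

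Among 22 tested ligases that can work with Ubc13, 4 rose, 0 fell and 18 did not pass, beside 4.41% higher and 2.16% lower over all tested genes, with a median log2 fold change of 0.08. Rnf213, a giant interferon-responsive ligase, had 55.5 and 51.0 CPM in control liver, against 143 and 173 CPM after deletion (1.57, SE 0.17, edgeR adjusted p = 0.0077). Trim25, a ligase of antiviral RIG-I signalling and of ISG15, went from 95.7 and 73.1 to 163 and 183 CPM (1.03, SE 0.19, edgeR adjusted p = 0.0314). Traf3 and Birc3 act at TNF receptor complexes. Traf3 rose from 9.56 and 14.7 to 32.5 and 24.7 CPM (1.24, SE 0.26, edgeR adjusted p = 0.0446). Birc3 rose from 12.3 in both controls to 33.2 and 21.7 CPM (1.16, SE 0.23, edgeR adjusted p = 0.0417). The most abundant members that did not pass, Xiap, Rnf4 and Itch, had 0.05, -0.23 and -0.51. Rnf213 kept its call without any 1 library; Trim25 and Traf3 lost theirs without deletion replicate 1 (adjusted p = 0.0711 and 0.158) or 2 (0.143 and 0.0854), and Birc3 without deletion replicate 1 (0.147).

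Of 12 tested deubiquitinases of lysine 63 chains and inhibitors of Ubc13, 1 rose and 0 fell, beside 4.41% and 2.16% over all tested genes, with a median log2 fold change of 0.09. Otud7b, a negative regulator of NF-kB signalling, had 39.5 and 32.5 CPM in control liver, against 68.3 and 58.7 CPM after deletion (0.82, SE 0.17, edgeR adjusted p = 0.047). Tnfaip3, the NF-kB inhibitor A20, named after its values were seen, had the largest change of the list without a call, from 5.06 and 3.30 to 59.1 and 13.5 CPM (3.11, SE 0.70, edgeR adjusted p = 0.0568). For Otud7b, without control replicate 2, deletion replicate 1 or deletion replicate 2 its adjusted p was 0.0509, 0.174 or 0.124. Otub1, which binds Ubc13 and blocks it, had 48.3 and 45.9 against 51.3 and 48.9 CPM (0.09, edgeR adjusted p = 0.756), and Zranb1 and Otud5 had 0.04 and 0.09. The fit with the male RNA covariate called 65 of all 14600 tested genes (0.445%), where the main fit called 959 (6.57%). With that covariate, Ubd alone of the 8 pathway genes called in the main fit kept its call. The other 7 had edgeR adjusted p from 0.105 to 0.737. Of these 7, Rnf213, Uba7, Isg15 and Trim25 had larger log2 fold changes there than without the covariate (1.85, 1.44, 1.27 and 1.17). Traf3, Otud7b and Birc3 had smaller ones (0.84, 0.54 and 0.44).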

How the data were processed

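Per the labels' protocols, QuantSeq 3' libraries were read as single-end 75 bp reads and aligned with Bowtie2; the submitters' processing notes name mm10 and GRCm38, which are names of 1 assembly. Raw counts for each Ensembl gene, as deposited by the authors, came in 4 columns (0 others). How reads were counted (program, strand, annotation) is not given in the sources used here. GENCODE M21 (GRCm38) gave symbols to 52029 of 56953 rows. Members and lists were chosen with earlier results of these data known. Counts were fitted over all genes by the two-sided quasi-likelihood F test of edgeR 4.0.16 in R 4.3.3, with TMM factors, genotype as the only term and filterByExpr (minimum count 10, minimum total 15). Calls were made where the Benjamini-Hochberg adjusted p was under 0.05, and the script was tested on simulated data. Each SE came from dividing the size of the log2 fold change by the root of its F value, and intervals used the fit's total degrees of freedom. Alternatives included DESeq2 1.42.0 and limma-voom (limma 3.58.1). Genes named with values in each library were Ube2n, its partners, members called in any fit of all 4 libraries and the 3 largest uncalled changes each way; values by library of other members were added after they were seen. Of other lists, the called genes and the 3 most abundant uncalled are named. A chi-square per degree of freedom of 38.9 (controls) and 25.3 (deletion) showed only that neither pair agreed within counting noise, as 1 library deposited again would; it does not show that they are separate animals. Values of a few genes are not reported here.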

Additional observations from a re-analysis of the deposited data

How the results depend on the processing

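Ube2n was lower in all 14 alternatives, at -2.92 to -2.57, and was called in 13 of them; with a covariate for male RNA it was -2.82 and not called (adjusted p = 0.0643; the cause was not tested). Ube2v2 stayed uncalled in all 14, at -0.44 to -0.05. Besides Ube2n, the number of members called higher was 1 (Ube2l6) with library sizes alone, without a filter on low counts and with DESeq2. Those fits called 12.1%, 10.8% and 10.2% of all genes, beside 6.57% in the main fit. Ube2l6 had a log2 fold change of 0.96 without control replicate 1 and 0.48 without control replicate 2. The number of members called lower was 1 (Ube2ql1, -4.66, edgeR adjusted p = 0.00155) without a filter, where 1125 of 25648 genes were called lower. Without control replicate 2, Ube2h and Ube2ql1 had log2 fold changes of -0.71 and -5.41. Library sizes alone moved the median of all genes by 0.291 on the log2 scale and that of the members with it (0.012 above all genes, 0.013 in TMM), turned the split of the 31 others to 28 positive and 3 negative, and gave family sums of 1287 CPM in the controls and 1515 CPM in the deletion libraries, which reverses their order. The replicate numbers name no shared animal or day, and same-numbered libraries deviated with a correlation of -0.12. With the replicate block 0 other members were called and Ube2n was -2.86 (adjusted p = 0.0121), while calls over all genes went from 959 to 390 and pathway genes called higher from 8 to 3. With the numbers crossed, an alternative chosen after seeing the data, 1366 genes and 1 other member were called. Pathway genes called higher numbered 1 with the male covariate, where calls over all genes went from 959 to 65. With 0 counts for Gm20431, adding it to Ube2v1 could not change that level and tests nothing. Of the 6 others whose interval reached 2-fold, 3 (Ube2t, Ube2cbp and Ube2u) were under 4 CPM in every library. The remaining Ube2l6, Ube2d1 and Ube2c had control means of 59.7, 8.35 and 7.11 CPM. The part of depth in these intervals was not tested.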
